A study of Mus musculus with 14 samples.

Results

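The 14-3-3 protein family was described in 14 single cells labelled as glomerular mesangial cells, the contractile, matrix-producing support cells of the kidney glomerulus. Its 7 members in the mouse, Ywhaz, Ywhae, Ywhab, Ywhaq, Ywhah, Ywhag and Sfn, were taken by gene symbol from a table of 35271 Ensembl genes, of which 21396 are annotated as protein-coding, and all 7 had a row. The family was selected on a measured value, since Ywhaz was among the highest genes of these cells, so its levels are given as a description and with no test. All cells came from 1 male wild-type mouse of 8 weeks, whose strain the sample labels write as C56BL/6 and the series design as C57BL/6. The glomeruli were gathered with magnetic beads and dissociated with enzymes, and a Fluidigm C1 instrument captured each cell, lysed it and made its cDNA. There is 1 group and 1 animal, so no groups were compared, the spread given is that between cells of this mouse, and no p-value was computed.

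14-3-3 proteins are small, acidic adaptor proteins that work as dimers, of like or unlike members. Each dimer clasps client proteins at short sites carrying a phosphorylated serine or threonine, and in this way it holds transcription factors in the cytoplasm, shields sites from phosphatases or keeps kinases in one shape. Ywhab encodes the beta form, Ywhae epsilon, Ywhag gamma, Ywhah eta, Ywhaq theta (also called tau), Ywhaz zeta, and Sfn sigma, a form known from epithelial cells and induced by p53. In contractile cells, clients include YAP and TAZ of the Hippo pathway, FoxO factors, and proteins that regulate actin and myosin.

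On GRCm38, the assembly that mm10 denotes, Ywhaz (ENSMUSG00000022285) spans bases 36770770 to 36796929 of chromosome 15, minus strand, and Ywhae (ENSMUSG00000020849) bases 75732869 to 75765845 of chromosome 11, plus strand. Ywhab (ENSMUSG00000018326) is on chromosome 2 from 163994960 to 164018588, plus, and Ywhaq (ENSMUSG00000076432) on chromosome 12 from 21390071 to 21417637, minus. Ywhah (ENSMUSG00000018965) and Ywhag (ENSMUSG00000051391) are both on chromosome 5, from 33018816 to 33027966, plus, and from 135908409 to 135934616, minus. Sfn (ENSMUSG00000047281) is on chromosome 4 from 133600556 to 133602168, minus, and is annotated with a single transcript. All are protein-coding, and each value covers the whole gene.

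The 250 bases before the start set by RefSeq are shown for 3 members, to be read side by side. They are a member high in all cells, one that reached an RPKM of 10 in 3 cells and one never detected. The windows are RefSeq's on GRCm38.p6, whose promoter table holds 5 of the 7 members (not Ywhaz and Ywhab). RefSeq's starts can differ from the gene bounds given above, and the last bases of the Ywhae window lie inside the gene, which starts at 75732869. The Ywhae sequence is chr11:75732637-75732886 on the plus strand, that of Ywhah chr5:33018566-33018815 on the plus strand, and that of Sfn chr4:133602169-133602418 on the minus strand. Capitals mark CG dinucleotides, and each run reads 5′ to 3′.
Ywhae: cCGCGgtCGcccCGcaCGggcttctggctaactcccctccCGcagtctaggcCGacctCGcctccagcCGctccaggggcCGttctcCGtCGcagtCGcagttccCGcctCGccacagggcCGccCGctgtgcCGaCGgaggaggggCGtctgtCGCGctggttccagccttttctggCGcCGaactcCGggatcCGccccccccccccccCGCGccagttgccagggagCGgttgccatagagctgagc
Ywhah: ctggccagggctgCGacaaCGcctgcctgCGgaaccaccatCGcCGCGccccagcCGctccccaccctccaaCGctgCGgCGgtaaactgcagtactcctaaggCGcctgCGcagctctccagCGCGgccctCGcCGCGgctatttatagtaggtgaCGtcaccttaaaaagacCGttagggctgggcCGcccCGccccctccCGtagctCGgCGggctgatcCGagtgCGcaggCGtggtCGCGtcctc
Sfn: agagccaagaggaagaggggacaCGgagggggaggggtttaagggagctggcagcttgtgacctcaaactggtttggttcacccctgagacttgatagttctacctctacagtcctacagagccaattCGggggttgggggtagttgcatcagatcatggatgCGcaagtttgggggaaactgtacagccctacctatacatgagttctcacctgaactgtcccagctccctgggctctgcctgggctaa
Ywhae and Ywhah had 29 CG dinucleotides each, a number reached by 6.78% of the 32851 promoters of that table, while Sfn had 3, reached by 71.0%. Ywhaq had 24 and Ywhag 16, and the median of all promoters was 6. The Ywhaq window, chr12:21417437-21417686 on the minus strand, lies mostly inside the gene, whose span ends at 21417637. Its CG dinucleotides and matches are therefore not all upstream of that span, and its counts are not like for like with the others. For Ywhag, the bases just after the window were not found in an annotated transcript of the gene. The motif TATAAA, searched on both strands, stood once in the Ywhah window and in 12.4% of all windows, and TGACGTCA, the full cyclic AMP response element, also stood once there and in 1.55% of all. Neither was found in the other 4 windows. GGGCGG occurred 2 times each in Ywhae, Ywhah and Ywhag and in 32.7% of all windows, and CCAAT 2 times in Ywhaq, once in Sfn and in 33.8% of all. All searches covered both strands, and the number of places where matches of different motifs overlapped was 0 in the 5 windows, apart from the CG that TGACGTCA and GGGCGG themselves hold.

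The cells differed in depth and in the number of genes seen. Values are in RPKM, that is, read counts scaled to gene length and to the cell's total of reads, and whole-read totals recovered from them ran from 6598126 to 23815562 reads per cell. Between 1770 and 5277 genes per cell reached an RPKM of 1, which is the limit for calling a gene detected here. Of 9 mesangial marker genes, 6 to 8 reached an RPKM of 10 in each cell, led by Gata3 at 2518 to 10706. Tbx18, also a mesangial marker, was at 0 in all cells. GL_M_30 had 10 of 13 endothelial markers at 10 or more, against 5 at most in the other cells, and GL_M_55 had 5 of 12 podocyte markers, against 2 at most. Of the 13 endothelial markers 5 were detected in at least 7 cells, among them Eng and Ehd3 in each of the 14, while Pecam1 was detected in 3, Kdr in 2 and Cdh5 in 1. From the podocyte list, Wt1 and Cd2ap were detected in 7 cells each. Of 9 smooth muscle and renin cell markers 1 was detected in at least 7 cells, and of 6 parietal epithelium markers 0, against 9.01% of all protein-coding genes. Of 9 leukocyte markers, Fcer1g reached 10, at 923 in GL_M_85, and of 5 proximal tubule markers 0 were detected in any cell.

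Ywhaz and Ywhae were high in every cell and supplied most of the family's transcripts. Ywhaz had an RPKM of 492 in the lowest cell, 3662 at the median and 7723 in the highest, and Ywhae 550, 1632 and 3505. On the scale log2(RPKM + 1), Ywhaz stood at 11.51 ± 0.96 and Ywhae at 10.59 ± 0.69 (mean ± SD over 14 cells of 1 mouse). Both were at 10 or more in all 14 cells, as were 0.332% of protein-coding genes, and nothing is read from this for Ywhaz, whose level chose the family. Ywhab was also detected in all 14 cells, as were 0.701% of protein-coding genes, but at far lower levels.

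**Figure D1:**
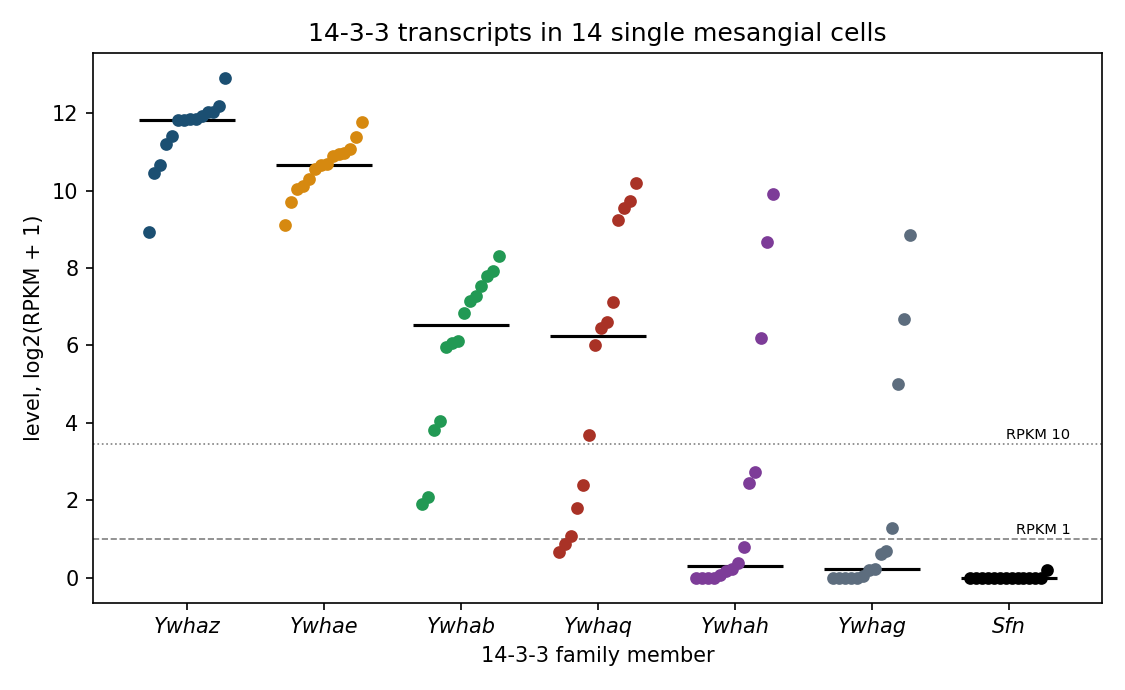
Level of each 14-3-3 member, as log2(RPKM + 1), in the 14 cells. Each point is 1 cell, sorted by value within a member, and the bar is the median; the lines mark an RPKM of 1 and of 10. Ywhaz and Ywhae have the highest medians, over ranges of 15.7-fold and 6.38-fold. Ywhab and Ywhaq spread more widely, and Ywhah and Ywhag reach an RPKM of 10 in 3 cells each.

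Among all genes of a cell, Ywhaz ranked between 4th and 15th by RPKM in 10 of the cells. It was 4th in GL_M_60, 25th in GL_M_91, 51st in GL_M_55, 60th in GL_M_29 and 283rd in GL_M_75. Ywhae ranked from 7th, in GL_M_75, to 279th, in GL_M_29. The cell in which Ywhaz ranked lowest was thus the cell in which Ywhae ranked highest.

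Ywhaz was above Ywhae in 13 of 14 cells. In those 13 cells the ratio of their RPKM ran from 1.25 in GL_M_85 to 3.43 in GL_M_94. In GL_M_75 Ywhaz had an RPKM of 492 and Ywhae of 3505, so that Ywhae was 7.13-fold higher. The counts behind these values were 4523 reads of Ywhaz and 21809 reads of Ywhae. GL_M_75 was the shallowest cell and had 8 of the 9 mesangial markers at 10 or more, and what sets it apart was not tested.

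Across the 14 cells the log2 levels of Ywhaz and Ywhae had a Pearson's r of 0.06 and a Spearman's rho of 0.31. Without GL_M_75 the Pearson's r was 0.78. The value thus rests on that cell. In the other 13 cells both genes were lowest in GL_M_29, at 1417 for Ywhaz and 550 for Ywhae, and highest in GL_M_60, at 7723 and 2696. GL_M_60 was the most deeply sequenced cell, and the points share 1 mouse and differ in depth, so this is a description.

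**Figure D2:**
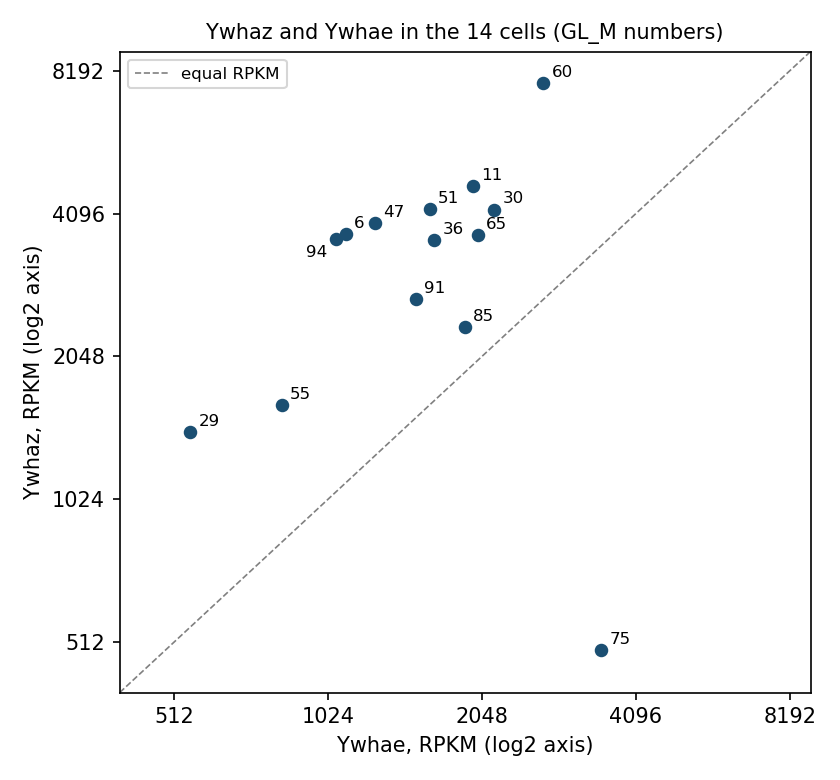
RPKM of Ywhaz (vertical) against Ywhae (horizontal) in each of the 14 cells, on log2 axes; numbers are those of the cell names and the dashed line marks equal RPKM. In 13 cells Ywhaz lies above the line, and GL_M_75, at 492 and 3505, lies far below it.

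Summed over its members, the family had an RPKM of 2131 in GL_M_29, 5486 at the median and 12056 in GL_M_60. It made up 0.973% ± 0.366 of a cell's RPKM total (mean ± SD over 14 cells). Counted in reads, which do not depend on gene length, its share was 0.719% ± 0.313. GL_M_75 was not unusual in the summed RPKM. With 5247 it held the 9th place of 14, between GL_M_6 at 5434 and GL_M_94 at 4910.

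Ywhaz supplied 60.2% ± 16.0 and Ywhae 30.9% ± 11.9 of the family sum, and together they gave 76.2% to 99.9%. In 13 cells the share of Ywhaz lay between 49.0% and 73.9%, and in GL_M_75 it was 9.37%, against 66.8% for Ywhae and 22.6% for Ywhaq. The member next after the leading pair of a cell differed. It was Ywhaq in 6 cells, Ywhab in 5, Ywhah in GL_M_36 and GL_M_85 and Ywhaz itself in GL_M_75. Leaving out GL_M_30 and GL_M_55, the cells with most endothelial and podocyte markers, the mean share of Ywhaz was 59.8%.

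**Figure D3:**
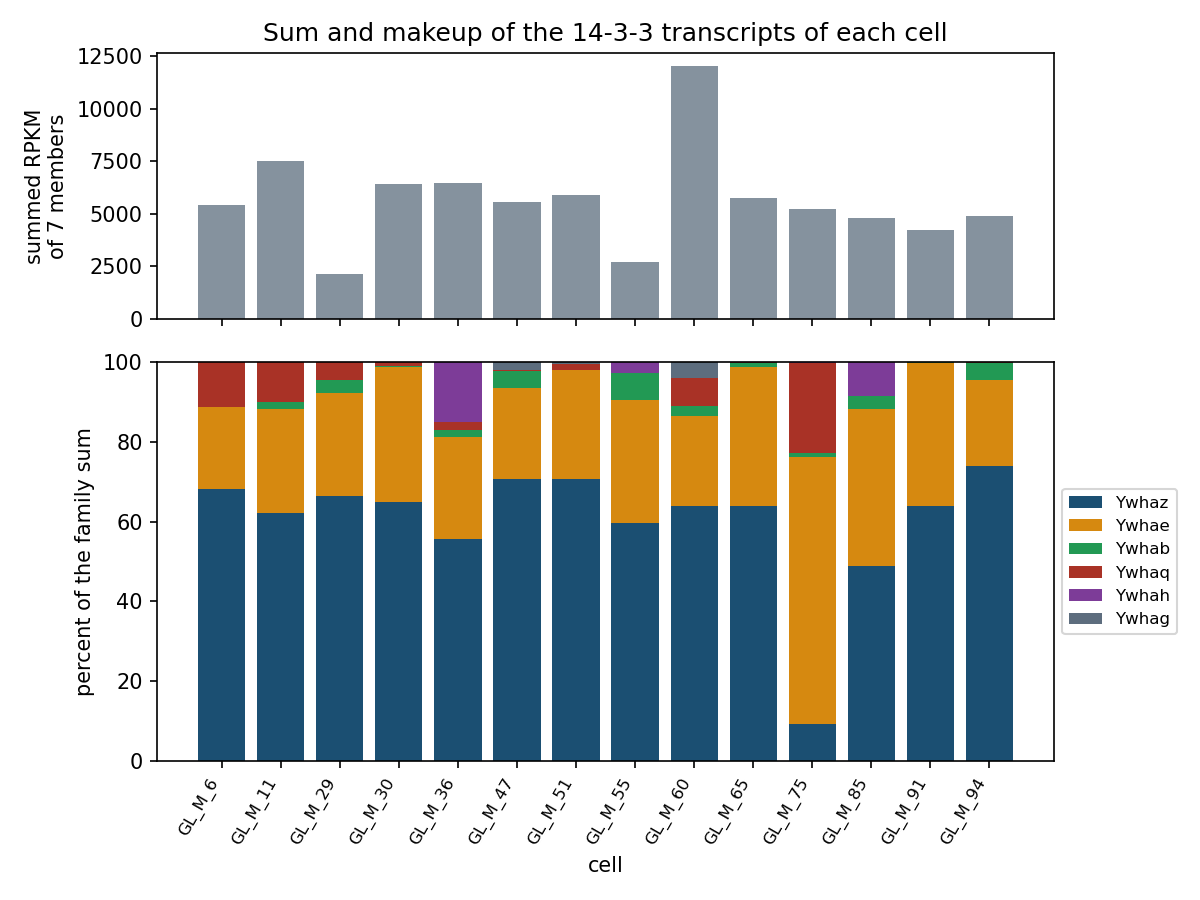
Upper bars give the summed RPKM of the 7 members in each cell, and lower bars the percent of that sum from each member (Sfn, at most 0.00228%, is not drawn). Ywhaz is the largest piece in every cell but GL_M_75, where Ywhae gives 66.8%, while the sum there, 5247, is near the median of 5486.

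Ywhab was detected throughout but varied 116-fold. Its RPKM was 2.75 in GL_M_51, 90.9 at the median and 319 in GL_M_60, or 5.92 ± 2.13 on the log2(RPKM + 1) scale. It was at 10 or more in 12 cells and was below that in GL_M_51 and in GL_M_91, at 3.27. Even those values rested on 101 and 112 reads.

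Ywhaq was the most widely spread of the members above 0 in every cell, over a 2010-fold range. It had an RPKM of 1185 in GL_M_75, 857 in GL_M_60, 744 in GL_M_11 and 603 in GL_M_6, lay between 11.9 and 139 in 5 further cells, and was at or below 4.25 in the other 5. It was below the limit of 1 in GL_M_85, at 0.829, and in GL_M_91, at 0.590, which leaves 12 of 14 cells (exact 95% interval 57.2% to 98.2%, for the sampling of cells of this mouse). Neither Ywhab nor Ywhaq ranked above the other throughout, as Ywhab was higher in 6 cells and Ywhaq in 8. Their order by mean level, 5.92 ± 2.13 and 5.39 ± 3.58, is within their spread.

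Ywhah and Ywhag each reached an RPKM of 10 in 3 cells, and these were different cells. Ywhah had an RPKM of 963 in GL_M_36, 411 in GL_M_85 and 72 in GL_M_55, was at 5.63 in GL_M_47 and 4.47 in GL_M_75, and was below 1 in the other 9, 4 of which were listed at 0. It was detected in 5 of 14 cells (12.8% to 64.9%). In GL_M_36 Ywhah gave 14.9% of the family sum, from 13565 reads.

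Ywhag had an RPKM of 461 in GL_M_60, 102 in GL_M_47 and 30.8 in GL_M_51. It was at 1.42 in GL_M_85 and below 1 in the other 10 cells, 5 of which were listed at 0. The number of cells with both Ywhah and Ywhag at 10 or more was 0, and 6 cells had one of them. With 3 cells each, this says little about how they combine.

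Sfn was not detected in any cell, and the exact 95% upper limit for 0 of 14 cells is 23.2%. The same held for 12450 of the 21396 protein-coding genes, so being undetected is the commoner outcome in these data. Sfn was listed at 0 in 13 cells and had 3 reads, an RPKM of 0.146, in GL_M_30. On its length, 3 reads stand for 0.0781 RPKM in the deepest cell and 0.282 in the shallowest.

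**Figure D4:**
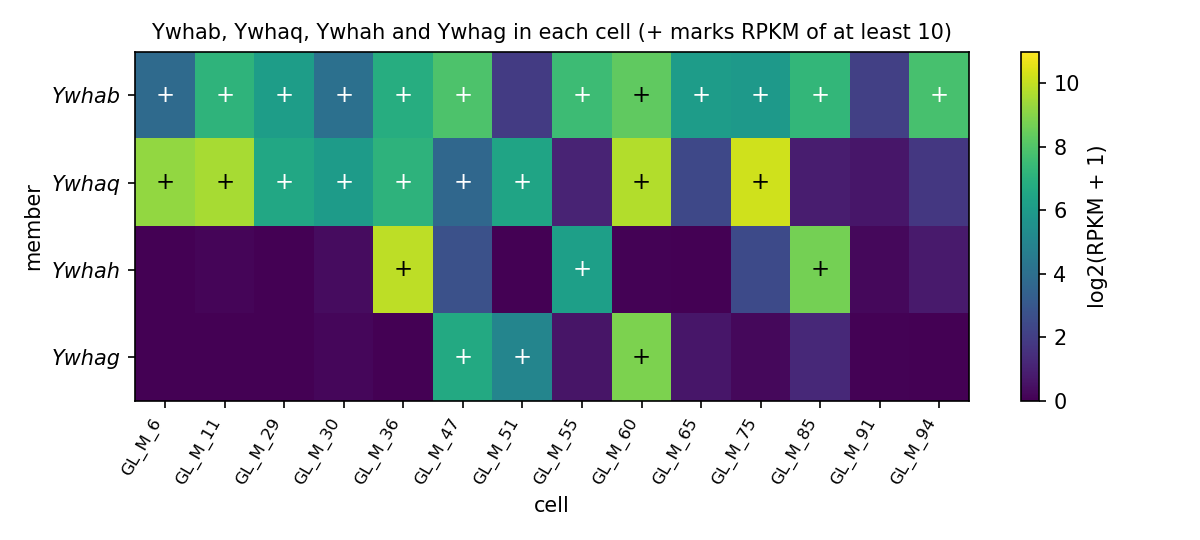
Level of Ywhab, Ywhaq, Ywhah and Ywhag in each cell, as log2(RPKM + 1) in colour; + marks an RPKM of at least 10. Ywhab is marked in 12 cells and Ywhaq in 9, and the 3 cells marked for Ywhah are not among the 3 marked for Ywhag.

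A cell had 3 to 6 members detected and 2 to 5 at an RPKM of 10 or more. Among all 35271 genes, 1770 to 5277 per cell were detected, and the number at 10 or more is not given. GL_M_91 had the fewest at 10 or more, only Ywhaz and Ywhae, which made up 99.9% of its family sum. GL_M_36, GL_M_47 and GL_M_60 had 5. GL_M_36 and GL_M_47 were also the cells with most genes detected, 5277 and 4842, whereas GL_M_60 had the fewest, 1770. Over the 15 pairs of members without Sfn, Pearson's r of the log2 levels across cells ran from -0.27 to 0.46 with a median of 0.02, and no pair moved closely together over all 14 cells.

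The SDs of Ywhaz, Ywhae and Ywhab over the cells were smaller than those of most of the 200 genes nearest in mean level. Ywhaz was chosen for its level, so nothing is read from its place. The SD of Ywhaz was 0.96, and 27 of its 200 neighbours had a smaller one; only 7 genes had a higher mean level, so most of these neighbours lie below it. Among the 100 nearest the share was 25.0%, against 13.5% of 200. For Ywhae 12 and for Ywhab 10 of 200 neighbours had a smaller SD. Only 17 genes had a higher mean level than Ywhae, so most of its neighbours lie below it too. Ywhaq was in the middle, with 101, while Ywhah and Ywhag were among the more variable, with 154 and 139.

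The genes whose pattern over the 14 cells was most like that of Ywhaz were sought among 842 protein-coding genes whose mean RPKM reached 10 and that were detected in at least 10 cells. By Pearson's r of log2 levels they were Tma7 (0.72), a small protein associated with translation, Atp5c1 (0.70), the gamma subunit of ATP synthase, Gstm1 (0.69), a glutathione S-transferase, Tm4sf1 (0.69), a tetraspanning membrane protein, and the ribosomal protein gene Rps28 (0.67). Without GL_M_75 the values for Gstm1 and Tm4sf1 were 0.09 and 0.20 and that for Rps28 was 0.49, while those for Tma7 and Atp5c1 were 0.76 and 0.71. Genes most like the family sum included Pura (0.78), a nucleic acid-binding protein, the ribosomal protein gene Rps4x (0.73), Tma7 (0.71) and 1810037I17Rik (0.70). Ywhaz gave 60.2% of that sum on average, so Tma7 on both lists is not a separate result. Pura, Rps4x and Tma7 were lowest in GL_M_29, the cell with the lowest family sum, and 1810037I17Rik in GL_M_51. With 1 cell left out, the lowest values of r for these genes were 0.70, 0.66, 0.66 and 0.64. These likenesses were among the highest of 842 and 839 genes over 14 cells, and no p is given. Over all genes ranked, r to Ywhaz had a median of -0.007 and a lowest value of -0.77. For the family sum these were 0.05 and -0.69, so negative values were about as large in size.

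Kinases, phosphatases and clients of the family were mostly detected in few cells, which holds more strongly for protein-coding genes as a whole. Of 100 genes on 9 lists of kinases, phosphatases, modifying enzymes and clients, 84 were detected in some cell, 22 in at least 7 cells and 1 in all 14. Of all protein-coding genes 41.8% were detected in some cell, 9.01% in at least 7 and 0.701% in all 14. The 1 gene of 100 in all 14 cells is thus near the share of all genes. The counts per list below are to be read beside the 9.01% for at least 7 cells. The median gene of the lists was detected in 3 cells, that of all protein-coding genes in 0.

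Among 20 kinases that can phosphorylate docking sites, 6 were detected in at least 7 cells. Sgk1, a serum- and glucocorticoid-induced kinase, was the gene found in all 14, with an RPKM of 4.0 at the lowest, 181 at the median and 3157 in GL_M_91. Lats2, a Hippo kinase that marks YAP for 14-3-3 binding, was detected in 10 cells with a median of 120, Rps6kb1 in 7 (18.8) and Pim1 in 9 (14.2). Akt1 was detected in only 4 cells but reached 2220 in GL_M_65. Of 9 phosphatase genes 3 were detected in at least 7 cells. Ppp1cb, a catalytic subunit of protein phosphatase 1, led with 13 cells and a median of 198, followed by the calcineurin subunit Ppp3ca with 9 cells and 58.0, and Ppp1ca with 7 and 2.18. Ppp2ca, the catalytic subunit of protein phosphatase 2A, was detected in 3.

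Of 8 enzymes that modify 14-3-3 proteins themselves, Csnk1a1, casein kinase 1 alpha, was detected in 12 cells with a median of 60.6. Akt1, Mapk8 (the kinase JNK1) and Prkaca, the catalytic subunit of protein kinase A, were detected in 4, 3 and 5 cells. Prkcd was not detected.

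Clients of the cytoskeleton were led by Cfl1, the actin-severing protein cofilin, in 13 cells with a median RPKM of 320. Vim, vimentin, was detected in 9 cells (66.0), Arhgef2, a microtubule-bound activator of RhoA, in 8 (73.8), and Rgs3 in 7 (1.08), and 6 of the 16 genes of this list in at least 7 cells. In the MAP kinase list of 10, Braf was detected in 9 cells with a median of 74.5. Its relative Araf was detected in 5 cells, and Abl1 and Map3k5 in 4 each.

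Of 19 clients in transcription and RNA control, 4 were detected in at least 7 cells. They were Zfp36l1, which promotes mRNA decay, in 12 (median 25.6), Foxo3, a forkhead factor restrained by AKT, in 11 (60.9), Mdm4, an inhibitor of p53, in 9 (4.85) and Yap1 in 8 (1.71). Of 6 cell cycle clients, Cdkn1b, the inhibitor p27, was detected in 13 cells with a median of 29.7. Cdc25a and Cdc25b were each detected in 1 cell, at 78.2 and 34.1, and the other 3 were undetected. Of 5 apoptosis clients 0 and of 10 growth and metabolism clients 0 were detected in at least 7 cells. With 9.01% of all protein-coding genes detected in as many, 0 in lists this short says little. In the apoptosis set Map3k5 and Bad were each detected in 4 cells, Bad at up to 1054 in GL_M_60, and Casp2, Bax and Bcl2l11 in 1 each. In the metabolic set Becn1 and Tbc1d1 were detected in 3 cells each, Tsc2 and Irs1 in 2 each and Rptor in 1, and 5 were undetected.

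**Figure D5:**
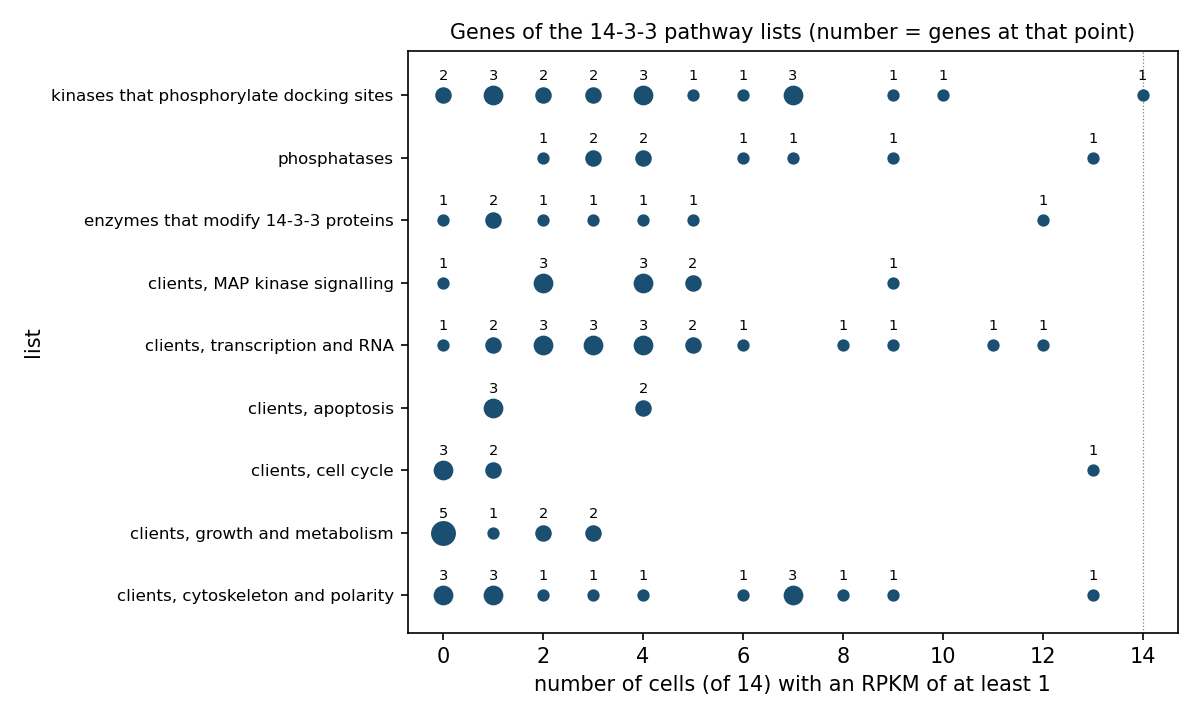
Number of the 14 cells in which each gene of the 9 lists had an RPKM of at least 1 (horizontal), with 1 row per list; the size of a point and the number above it give how many genes share that count. The median gene of the lists lies at 3 cells, and only Sgk1 lies at 14.

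The RPKM depend on the gene length the authors divided by, which the whole-read steps reveal. The smallest length that turned a member's values into whole reads in all cells above 0, within 0.02 reads, was 1394 bases for Ywhaz, 943 for Ywhae, 1931 for Ywhab, 1530 for Ywhaq, 1050 for Ywhah and 1715 for Ywhag. These are shorter than the longest annotated coding transcripts, of 3288 bases for Ywhaz and 2100 for Ywhae. Per summed exon length the RPKM would be 2.95-fold lower for Ywhaz, 2.72-fold for Ywhae, 1.75-fold for Ywhab, 2.0-fold for Ywhaq, 3.53-fold for Ywhah and 3.21-fold for Ywhag, and the same for Sfn. The order of the members by mean level was the same on either length. Comparisons of 1 member between cells do not depend on it.

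Some members share sequence with other annotated genes. Of the 50-base windows of Ywhaz transcripts 15.2% also occur in another gene, nearly all in Gm4202, whose own RPKM was at most 0.202. For Ywhaq the share was 28.9%, with pseudogenes among the matches. Ywhaq-ps2 and Ywhaq-ps3 themselves had at most 4 and 1 reads. The share was 8.62% for Ywhah, 15% for Sfn, 0.215% for Ywhag and 0 for Ywhae and Ywhab, and no window was shared between members. Ywhaq also shares 248 exon bases with the antisense gene Gm4419, whose RPKM was at most 0.216. The sources used here do not say how reads mapping to several places, or the strand of reads, were handled.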

How the data were processed

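RNA was sequenced from 14 single cells of 1 mouse, 1 library per cell. The deposited values are RPKM per Ensembl gene, made by the authors, per the file headers. The submitters' processing notes name TopHat2 2.0.12, HTSeq 0.6.1 and the build mm10. No source used here gives the annotation release, the handling of reads with several matches or filters applied to cells. Symbols came from a gene name table, which matched 34488 of 35271 IDs, and coordinates and transcripts from GENCODE M21.

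Computations used Python 3.11.15 with numpy 2.4.6, pandas 2.3.3 and scipy 1.17.1, and plots matplotlib 3.10.9. Each cell's read total was recovered from genes with 1 annotated transcript, for which 1 read is worth a fixed RPKM. Of the genes lying within 0.02 of a whole number of 3 to 200 reads, 95.5% to 98.0% per cell gave the same total within 0.5 reads. Tested on simulated data for 14953 genes, 14 of 14 totals came back exactly. A count of 3 reads on 1 kb equals an RPKM of 0.126 to 0.455. Such floors cover counting error only, as no source mentions molecular identifiers. The exact Clopper-Pearson 95% intervals for shares of cells cover the sampling of cells of this mouse, not transcripts lost in capture or amplification.

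Levels are log2(RPKM + 1). Means and SDs are given for members above 0 in every cell. Cells of 1 animal are not replicates of a condition, so no test was run. The members and lists were chosen with earlier results of these data known. Named genes were the members, the Ywhaq pseudogenes, the 5 genes most like Ywhaz and the 5 most like the family sum, and the 4 genes of each list with the highest median RPKM, with undetected genes given by number. A gene like the family sum is not reported here. Irs1, Bcl2l11, Prkcd, the genes sharing sequence and the named markers were added after their values were seen. Akt1, Prkaca and Map3k5 each stand on 2 lists. Other gene lengths, pseudocounts, detection limits, rescaling to a common total and left-out cells were tried as alternatives.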

Additional observations from a re-analysis of the deposited data

How the results depend on the processing

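The alternatives with other gene lengths were chosen after seeing the data. No paired analysis was possible because there is 1 group and no test. The order of the members by mean level was the same with the median, with a pseudocount of 0.1 and per summed exon length, and it changed only without GL_M_36, where Ywhag stood above Ywhah. Leaving out each cell in turn gave a mean Ywhaz share of the family sum of 59.2% to 64.1%, a family share of the RPKM total of 0.901% to 1.02%, and a log2 difference of Ywhaz and Ywhae of 0.85 to 1.21, against 60.2%, 0.973% and 0.92. Counted in reads the Ywhaz share was 65.7%, and per summed exon length 57.3%. Of the 5 genes most like Ywhaz 1, and of those most like the family sum 3, remained among the first 5 by Spearman's rho. With a pseudocount of 0.1, 5 and 3 remained. Of the genes nearest Ywhaz in mean level 25% had a smaller SD when 100 were taken, against 13.5% of 200. Of the 100 genes of the pathway lists, 14 reached an RPKM of 10 in at least 7 cells and 54 were above 0 in as many, against 22 at an RPKM of 1. Of all 21396 protein-coding genes, 1049 reached an RPKM of 10 and 1927 an RPKM of 1 in at least 7 cells. The number above 0 is not given for all genes. Pearson's r of Ywhaz and Ywhae ran from -0.17 to 0.78 when 1 cell was left out, the highest without GL_M_75 and the lowest without GL_M_29. Mean log2 levels of Ywhaz and Ywhae were 9.95 and 9.15 per summed exon length, against 11.51 and 10.59, and were 12.30 and 11.38 with each cell's RPKM rescaled to a sum of 1000000. The number of members detected in all 14 cells was 3 at an RPKM of 1, 2 at 5 or 10 and 4 for any value above 0. Of all protein-coding genes 0.701% were in all 14 cells at an RPKM of 1 and 0.332% at 10. The shares at 5 and above 0 are not given for all genes, so the member counts there cannot be judged. The values describe 14 cells of 1 mouse, and differences between cells cannot be told apart from uneven amplification.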

Other observations

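The length behind the RPKM was also examined over all genes with several annotated transcripts. At the mean length of the GENCODE M21 transcripts, 50.8% of 6609 genes with at least 3 values below 50 reads gave whole reads, within 0.02, at all of these values. At the summed exon length 1.25% of 5938 genes did, and at the longest transcript 5.63% of 6229. For the 3359 genes that matched the mean, the summed exon length was 2.64 times the length used at the median, and 1.32 to 5.33 times between percentiles 5 and 95. Levels of different genes in this table can therefore stand in another proportion per summed exon length. The lengths recovered for Ywhae and Ywhab, 943 and 1931 bases, equal the rounded means of their M21 transcripts. Those of Ywhaz (1394, mean 1197), Ywhaq (1530, mean 1532), Ywhah (1050, mean 1332.5) and Ywhag (1715, mean 1694) do not.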
